A study of Mus musculus with 4 samples.

Results

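Villus-bottom Reg3-high enterocytes, in short Reg3-high enterocytes, were epithelial cells of the mouse distal jejunum that carried many transcripts of the secreted lectins Reg3b and Reg3g. Many of them also carried the glutathione transferase Gstm3, a further gene of the selection, but none needed it to be picked. They were picked cell by cell: at most 10% of a cell's unique molecular identifiers (UMIs, counted transcripts) on mitochondrial genes, at least 1 UMI of the epithelial gene Epcam, 0 UMIs of the proliferation gene Mki67, and 10 or more UMIs in 2 or more of Reg3b, Reg3g and Gstm3. A cell was left out when it held 2 or more UMIs in 3 or more genes of any of 3 further lists of 6 genes each, called here the mid list (Cubn, Slc5a12, Pck1, Lct, Dnase1, Slc13a2), the top list (Nt5e, Ada, Slc28a2, Ly6m, Clca4a, Slc23a4) and the Sprr list (Sprr2a3, Sprr1a, Gml, Gml2, Krt7, Tm4sf4). The rule found 236 cells of 22679 barcodes, or 6.75% of the 3498 Epcam cells and 4.02% of the 5876 cells that passed the mitochondrial limit.

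The jejunum was taken 18.5 h after surgical ischemia/reperfusion (I/R) of the small intestine, an injury in which blood flow is stopped and then restored. Control mice were Foxc1fl/fl;Foxc2fl/fl and EC-Foxc-DKO mice were Cdh5-CreERT2;Foxc1fl/fl;Foxc2fl/fl, with 2 adult mice in each group, 1 droplet library per mouse and no uninjured mouse. Both groups carried the floxed alleles, received tamoxifen according to the study's methods and underwent I/R, so genotype was the only labelled difference. The Cdh5 promoter drives the Cre in endothelial cells, so the epithelium kept its own Foxc genes. In the Reg3-high enterocytes Foxc1 had 1 UMI in Control 1 and 0 in the other mice, and Foxc2 had 0 in all 4 mice.

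Reg3b and Reg3g are C-type lectins that enterocytes and Paneth cells secrete into the lumen, where they bind bacteria and keep them away from the surface. They are induced by microbial signals and by interleukin-22 acting through STAT3. Enterocytes leave the crypt and change their gene programme as they climb the villus, from antimicrobial and amino acid genes low on the villus to lipid handling in the middle and purine and adhesion genes at the tip. Sis encodes sucrase-isomaltase, a sugar hydrolase of the brush border, and Ccl25 encodes a chemokine that draws gut-homing lymphocytes to the small intestine.

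Reg3b, Reg3g and the related Reg3a lie together on mouse chromosome 6, with the annotated genes at chr6:78370657-78373466 on the plus strand, chr6:78466269-78468872 on the minus strand and chr6:78380709-78383827 on the plus strand (GRCm38). Gstm3 lies at chr3:107963696-107969283 on the minus strand, Sis at chr3:72888557-72967863 on the minus strand and Ccl25 at chr8:4325210-4360020 on the plus strand. The 250 bases before the RefSeq start of the 3 Reg3 genes (GRCm38.p6) are shown because Reg3b and Reg3g were the most abundant secreted lectins of these cells and both were highest in EC-Foxc-DKO 2, while Reg3a was lowest there. The rule picked the cells on Reg3b and Reg3g, so the rank and level of these 2 genes are a description. The windows cover chr6:78370635-78370884 (Reg3b, plus strand), chr6:78468875-78469124 (Reg3g, minus strand) and chr6:78380459-78380708 (Reg3a, plus strand), read towards the gene. The RefSeq start of Reg3b lies downstream of the annotated gene start, so that window runs into the annotated gene. Capitals mark matches on either strand to TATAAA and to TTCNNNGAA, the spacing of a STAT site, and the motifs do not overlap.
Reg3b: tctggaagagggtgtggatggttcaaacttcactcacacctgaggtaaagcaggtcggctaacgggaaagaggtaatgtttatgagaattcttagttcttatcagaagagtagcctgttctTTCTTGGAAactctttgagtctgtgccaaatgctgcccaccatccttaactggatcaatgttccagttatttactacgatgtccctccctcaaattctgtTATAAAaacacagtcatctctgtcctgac
Reg3g: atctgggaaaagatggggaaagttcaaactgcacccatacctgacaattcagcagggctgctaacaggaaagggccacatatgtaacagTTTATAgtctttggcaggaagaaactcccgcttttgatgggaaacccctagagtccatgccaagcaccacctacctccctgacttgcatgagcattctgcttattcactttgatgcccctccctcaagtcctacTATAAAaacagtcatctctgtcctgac
Reg3a: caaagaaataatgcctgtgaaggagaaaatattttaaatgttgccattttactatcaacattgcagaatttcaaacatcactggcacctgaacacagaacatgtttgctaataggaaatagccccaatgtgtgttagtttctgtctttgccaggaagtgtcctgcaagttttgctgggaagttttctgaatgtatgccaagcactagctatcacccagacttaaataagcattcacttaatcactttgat
Reg3b held TATAAA 29 bases before its start and TTCTTGGAA 129 bases before it. Reg3g held TATAAA 27 bases before its start and the reverse form TTTATA 161 bases before it, without TTCNNNGAA. Reg3a held neither run of letters in this window. Its window ends in bases that resemble a stretch of Reg3g upstream of the TATAAA near its start. The part of Reg3a that would match that TATAAA was therefore not scanned, and a lack of it is not read. TATAAA occurred in 12.4% and TTCNNNGAA in 7.02% of 32851 RefSeq promoters scanned over the same length. Reg3b and Reg3g shared a run of 20 bases that ends at the start of both, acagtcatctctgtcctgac.

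The libraries contributed unequally. Control 1 gave 47 cells, Control 2 gave 14, EC-Foxc-DKO 1 gave 37 and EC-Foxc-DKO 2 gave 138, so 58.5% of the cells came from EC-Foxc-DKO 2. As a share of Epcam cells this was 3.87% in Control 1 (exact binomial 95% interval 2.86 to 5.11), 8.81% in Control 2 (4.90 to 14.3), 2.87% in EC-Foxc-DKO 1 (2.03 to 3.94) and 16.5% in EC-Foxc-DKO 2 (14.1 to 19.2). The intervals cover counting error only. The genotypes overlapped, since the lowest and the highest share both belonged to EC-Foxc-DKO mice, and 2 mice against 2 cannot pass an exact two-sided permutation test. The thresholds are in UMIs, so the share also moved with depth. When the rule was applied to cells thinned to 5000 UMIs it took 22.6%, 24.4%, 20.4% and 52.0% of the 1008, 127, 850 and 785 Epcam cells deep enough in Control 1, Control 2, EC-Foxc-DKO 1 and EC-Foxc-DKO 2, with EC-Foxc-DKO 2 highest. At a mitochondrial limit of 5% Control 2 was highest, with 19.5% (8 of 41 Epcam cells) against 16.0% in EC-Foxc-DKO 2. In whole-tissue suspensions, fewer cells of a type and fewer cells recovered cannot be told apart.

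The summed depth of the Reg3-high enterocytes was 1336371 UMIs in Control 1, 214359 in Control 2, 1251661 in EC-Foxc-DKO 1 and 3510273 in EC-Foxc-DKO 2. The median cell had 33946, 8352.5, 32529 and 23505.5 UMIs in the same order. Control 2 thus had the fewest cells and the lowest median depth. The shallowest single cells were in Control 1, where 4 had under 1000 UMIs and the lowest had 704, against a lowest of 1964 in Control 2. The log CPM profile of Control 2 correlated least with the others (0.878 with Control 1, 0.864 with EC-Foxc-DKO 1 and 0.833 with EC-Foxc-DKO 2 over 7379 genes, against 0.929 to 0.954 among the other mice). These correlations are across genes of libraries that share a tissue and differ in depth. The median mitochondrial share of a cell was 7.30% in Control 1, 4.50% in Control 2, 7.25% in EC-Foxc-DKO 1 and 6.74% in EC-Foxc-DKO 2. Across the study 51 barcodes occurred in more than 1 library, and 2 of the 236 cells carried such a barcode.

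The Reg3 threshold itself was met by 1878 Epcam cells, and most of them were removed by the caps: 1139 had 3 or more mid list genes, 512 had 3 or more top list genes, 351 had 3 or more Sprr list genes and 214 had Mki67, with overlaps between these counts. Among the cells kept, 131 had 2 mid list genes and so stood just inside that cap, and 17 had no gene of the 3 lists. Cells rarely stood at the Reg3 threshold. In 5 cells the second of the 3 genes had 10 to 12 UMIs, and 5 cells with 8 or 9 UMIs fell just outside. Reg3b and Reg3g reached 10 UMIs in every cell, and all 3 genes did so in 105 cells.

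The genes that chose the cells are given as a description, without a test. Reg3b took a median of 1.24% of a cell's UMIs in Control 1, 0.810% in Control 2, 2.49% in EC-Foxc-DKO 1 and 4.87% in EC-Foxc-DKO 2. The median for Reg3g was 0.793%, 0.466%, 1.00% and 2.22% in the same mice. Both lectins were thus higher in the median cell of each EC-Foxc-DKO mouse than in either Control mouse, and single cells overlapped widely, since Reg3b ran from 0.0953% to 5.45% of UMIs in Control 1 and from 0.0899% to 9.25% in EC-Foxc-DKO 2. Gstm3 was far lower and did not follow this order, with medians of 0.0295%, 0.0397%, 0.0185% and 0.0467%. Summed over the cells of a mouse, Reg3b stood at 16555, 15745, 25139 and 45641 counts per 1000000 UMIs (CPM) in Control 1, Control 2, EC-Foxc-DKO 1 and EC-Foxc-DKO 2. Reg3g stood at 7875, 8201, 10677 and 21599 CPM. Reg3a, which the rule did not use, had 724, 616, 372 and 160 CPM, and both EC-Foxc-DKO mice were below both Control mice (log2 fold change -1.35, SE 0.37, adjusted p = 0.354, edgeR), a difference that did not pass the test.

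**Figure D1:**
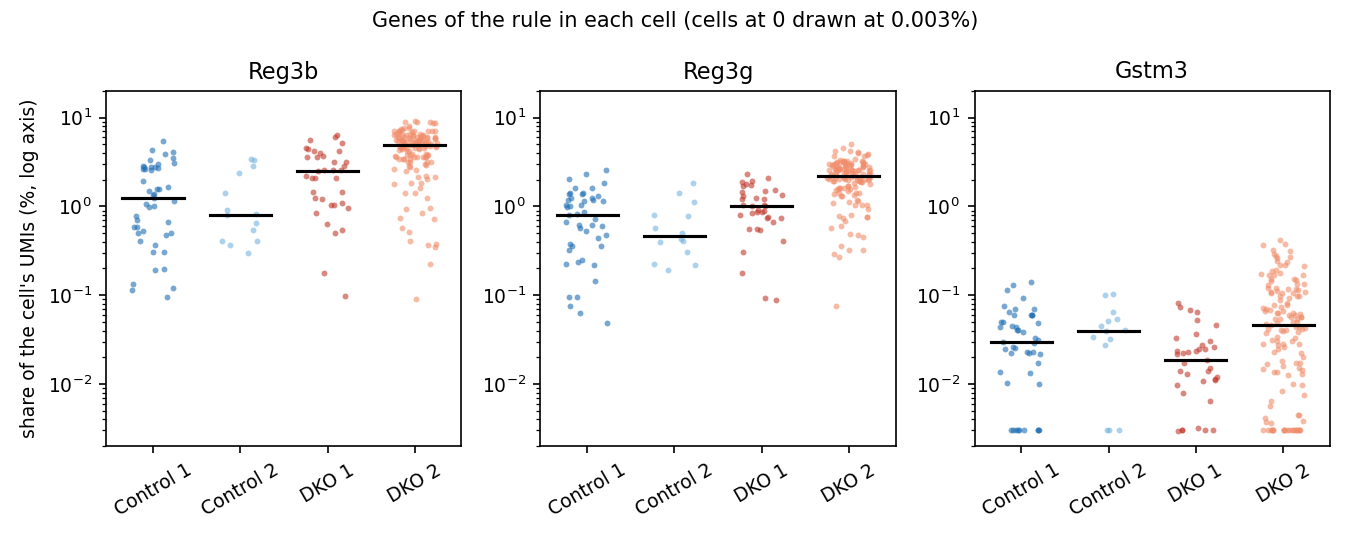
Share of each cell's UMIs (%, log axis) on Reg3b, Reg3g and Gstm3 in the 236 Reg3-high enterocytes by mouse, each point 1 cell and cells at 0 drawn at 0.003%. The Reg3b and Reg3g points of EC-Foxc-DKO 2 reach higher than those of Control 1 and Control 2 and overlap with them, and Gstm3 lies well below both lectins in every mouse.

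Leukocytes, which should lack these genes, did not meet the threshold. Of the cells with Ptprc, the pan-leukocyte gene, and no Epcam (175, 104, 1114 and 192 in Control 1, Control 2, EC-Foxc-DKO 1 and EC-Foxc-DKO 2, median 3683, 6063, 3515 and 4162 UMIs), 0 had 10 UMIs in 2 of the 3 genes. Yet 50.9%, 20.2%, 37.3% and 51.0% of them held at least 1 Reg3b UMI, at a median of 1 UMI or fewer per cell.

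Most of the cells carried enterocyte genes. Of 12 identity markers (Epcam, which the rule used, and among the others the epithelial cadherin Cdh1, the microvillus protein villin Vil1, the keratin Krt20 and the peptidase Anpep), the median cell held 12 in Control 1, 11 in Control 2, 12 in EC-Foxc-DKO 1 and 12 in EC-Foxc-DKO 2. At least 8 were held by 46 of 47, 13 of 14, 37 of 37 and 131 of 138 cells, and the lowest cell, in EC-Foxc-DKO 2, held 3. Their most abundant nuclear genes after Reg3b were the fatty acid binding genes Fabp1 (17204, 12446, 15651 and 12647 CPM) and Fabp2 (11995, 18931, 10753 and 14402 CPM), then Reg3g and the retinol carrier Rbp2 (12493, 10860, 10899 and 13337 CPM). Fabp2 was highest in Control 2, and the genotypes overlapped for all 3 carriers. Sis stood at 2099, 1950, 2379 and 2411 CPM and Ccl25 at 1366, 1152, 1163 and 823 CPM, and every mouse expressed both. Of the receptor genes through which interleukin-22 acts, Il10rb stood at 82.3, 88.6, 71.1 and 53.8 CPM, while Il22ra1 had only 5, 0, 0 and 2 UMIs in all.

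Reg3b chose the cells, so its level beside other kinds is a description and no check of the name "Reg3-high". In mid list cells of the same mice Reg3b stood at 17654, 23624, 22644 and 62074 CPM, above the Reg3-high enterocytes in Control 1, Control 2 and EC-Foxc-DKO 2. Top list cells had 8077 CPM in Control 1, 6612 in EC-Foxc-DKO 1 and 26975 in EC-Foxc-DKO 2, and Sprr list cells had 2677, 4868 and 31326 CPM in those mice. The rule capped the mid list genes without removing them: Lct, the lactase gene, was detected in 93.6%, 64.3%, 86.5% and 69.6% of the Reg3-high enterocytes of Control 1, Control 2, EC-Foxc-DKO 1 and EC-Foxc-DKO 2. Position along the villus was not measured, and the name Reg3-high enterocytes is kept here only for the threshold.

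**Figure D2:**
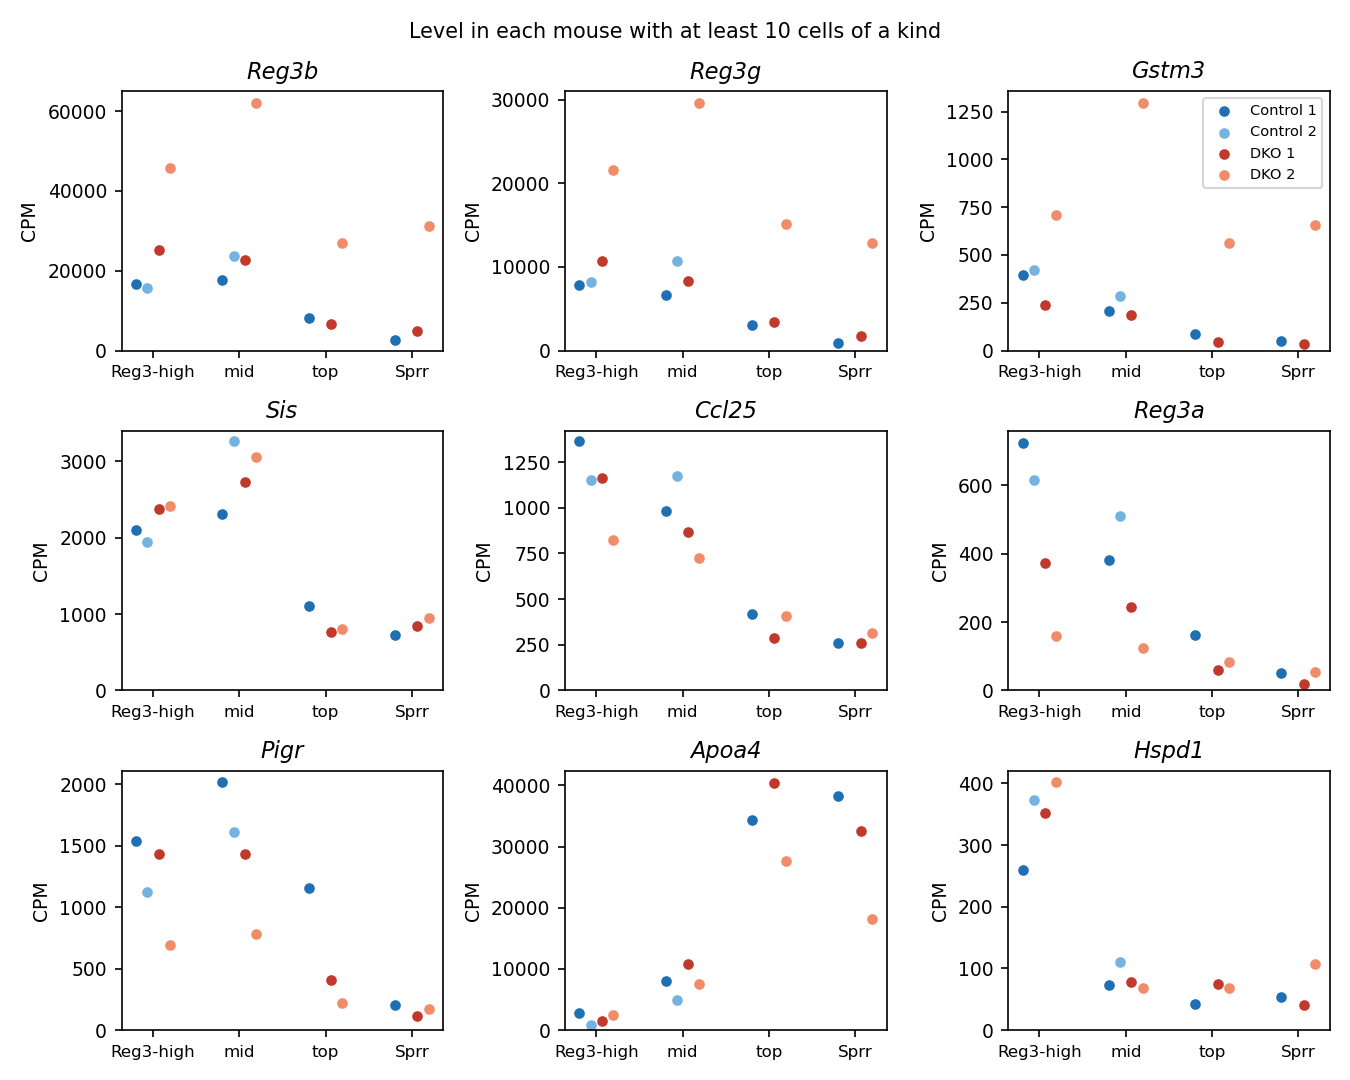
CPM of 9 genes (linear axes from 0) in Reg3-high enterocytes and in mid list, top list and Sprr list cells, each point 1 mouse with at least 10 cells of that kind. Reg3b and Reg3g are as high in mid list cells as in Reg3-high enterocytes, Apoa4 is lowest in Reg3-high enterocytes, and Hspd1 is highest in them.

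A minority of the cells also carried markers of other cell types. With 2 or more UMIs in 3 or more markers as the limit, a setting chosen after the data had been seen, 20 cells held goblet markers (1 in Control 1, 0 in Control 2, 3 in EC-Foxc-DKO 1 and 16 in EC-Foxc-DKO 2). Paneth markers were held by 10 cells, 2 in EC-Foxc-DKO 1 and 8 in EC-Foxc-DKO 2. Counting every type, 33 cells (14.0%) carried such markers, 1 in Control 1, 0 in Control 2, 6 in EC-Foxc-DKO 1 and 26 in EC-Foxc-DKO 2. A few of them were dominated by these transcripts: goblet markers took up to 24.2% of a cell's UMIs in Control 1, 22% in EC-Foxc-DKO 1 and 23% in EC-Foxc-DKO 2, and Paneth markers took up to 70.8% in EC-Foxc-DKO 2. Control 2 had no such cell, and its highest goblet share was 0.0227%.

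The summed goblet and Paneth levels lay mostly in these few cells, except in Control 2, which had none. The cells were picked by these markers, so lower sums without them were built into that choice. The 7 goblet markers, led by the trefoil peptide Tff3, summed to 3243, 32.7, 8582 and 9126 CPM in Control 1, Control 2, EC-Foxc-DKO 1 and EC-Foxc-DKO 2, and to 41.7, 32.7, 59.9 and 53.5 CPM without the 33 cells. The 13 Paneth markers, led by the defensin Defa24, summed to 77.1, 9.33, 121 and 5526 CPM, and to 0.758, 9.33, 6.55 and 36.3 CPM without them. Of these markers 10 were at 0 in Control 1, 11 in Control 2, 5 in EC-Foxc-DKO 1 and 0 in EC-Foxc-DKO 2. The 12 B and plasma cell markers, led by the immunoglobulin light chain Igkc, went from 27.7, 0, 127 and 1118 CPM to 28.1, 0, 49.6 and 23.1 CPM. Markers of T cells, myeloid cells, stroma and endothelium, and red cells summed to at most 107, 58.4, 37.3 and 9.73 CPM in any mouse, and those of enteroendocrine and tuft cells to at most 132 CPM.

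**Figure D3:**
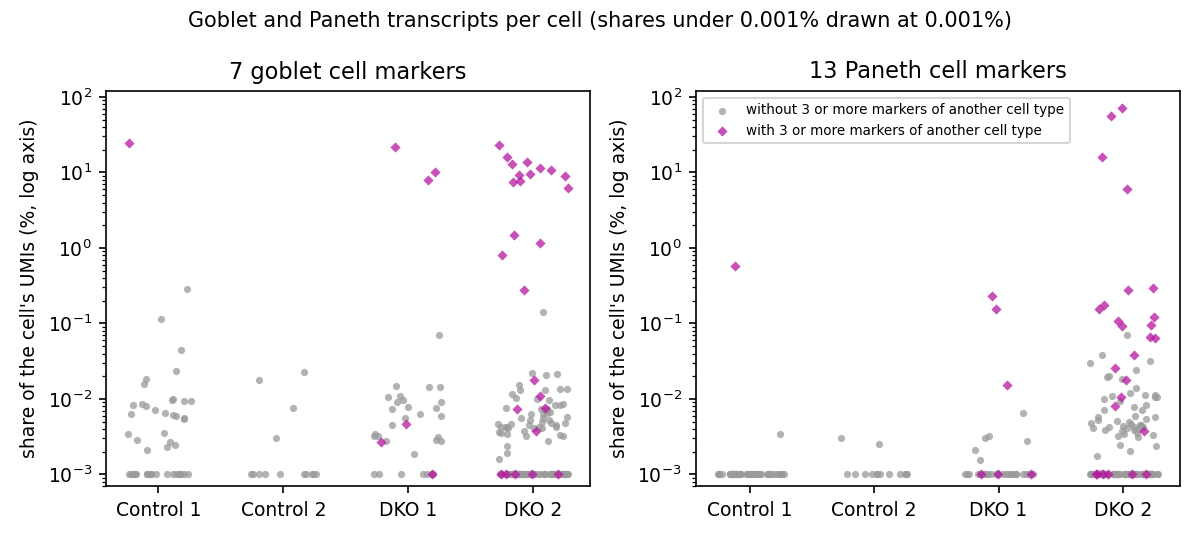
Share of each cell's UMIs (%, log axis) on 7 goblet markers and on 13 Paneth markers in the Reg3-high enterocytes of each mouse, with cells holding markers of another type drawn apart and shares under 0.001% drawn at 0.001%. The cells far above the rest lie mostly in EC-Foxc-DKO 2, with a Paneth share of up to 70.8%, and Control 2 has none.

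Genes of these other cell types led the variation among cells. After each cell was thinned to 5000 UMIs (39, 12, 37 and 136 cells deep enough in Control 1, Control 2, EC-Foxc-DKO 1 and EC-Foxc-DKO 2), the 15 genes with the highest ratio of variance to mean were the goblet genes Zg16, Tff3, Muc2, Fcgbp, Agr2, Spink4 and Clca1, the Paneth genes Defa21, Defa22, Defa24, Defa29, Defa30, Gm14851 and Lyz1, and Igkc. Markers among these genes had picked the 33 cells, so a lower rank of those markers without them was built into that choice. With the 33 cells left out (38, 12, 31 and 110 cells), the leading genes were Fabp2 with a ratio of 67.9, the apolipoprotein Apoa1 with 58.2, Fabp1 with 48.0, Rbp2 with 40.2 and Apoa4 with 36.1. The predicted gene Gm42418 (33.1), the selenium carrier Selenop (25.9) and the ileal bile acid binding gene Fabp6 (24.9) followed. Fabp6 was detected in 12.7% of the thinned cells of EC-Foxc-DKO 2, and its summed level was 0.748, 4.67, 20.8 and 467 CPM in Control 1, Control 2, EC-Foxc-DKO 1 and EC-Foxc-DKO 2.

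The next comparison asked how the endothelial deletion of Foxc1 and Foxc2 changed these epithelial cells. UMIs were summed per mouse and fitted over all 7379 genes that passed the filter on low counts (edgeR quasi-likelihood test, Benjamini-Hochberg adjustment, 2 mice against 2), and 15 genes (0.203%) rose and 0 fell at an adjusted p under 0.05. At an unadjusted p under 0.05 there were 422 genes. The genotypes did not overlap for 37.1% of all genes tested. The cells with goblet, Paneth or other markers moved with this result: without those 33 cells, 0 of 7103 genes passed (259 at an unadjusted p under 0.05). DESeq2 called 16 higher and 1 lower with all cells.

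Agr2, a disulfide isomerase needed to fold mucin, stood at 15.7 and 0 CPM in Control 1 and Control 2 and at 2111 and 2651 CPM in EC-Foxc-DKO 1 and EC-Foxc-DKO 2 (log2 fold change 7.55, SE 0.50, adjusted p = 0.000273). Without the 33 cells it stood at 4.55, 0, 5.61 and 22.8 CPM. The goblet gene Spink4 had 80.1, 18.7, 1440 and 1884 CPM (log2 fold change 4.78, SE 0.45, adjusted p = 0.00184) and 3.79, 18.7, 4.68 and 5.18 CPM without them. For both genes the genotypes were far apart with all cells. Agr2, Spink4, Spdef and Mmp7 are themselves markers by which the 33 cells were found, so their fall without those cells was built into that choice. Spdef, the transcription factor of goblet and Paneth cells, had 1.5, 0, 28 and 22.8 CPM and no UMI in any mouse without them. The Paneth protease Mmp7 had 0 UMIs in both Control mice against 45.5 and 88.9 CPM, at least 40.1-fold higher in the EC-Foxc-DKO group on a floor of 3 counts over the Control group, and Nupr1, a stress-induced chromatin gene, was at least 14.4-fold higher on the same floor. The goblet lectin Reg4 (log2 fold change 6.13), the selenoprotein Selenom (7.57), Fxyd3 (3.24), Cd24a (3.09) and Rep15 (5.46) behaved alike, and Retnlb, an antibacterial goblet protein, had 2.24, 0, 105 and 947 CPM. Nupr1 had 0 UMIs in both Control mice, and Selenom and Rep15 each had 1 in Control 1 and 0 in Control 2. Nupr1, Selenom and Rep15 thus passed the filter on low counts only through the EC-Foxc-DKO mice, and their differences are given as a description.

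Of the 15 genes, 4 still had enough counts to be tested without the 33 cells, and the size of the difference fell in each. Krt18, a simple epithelial keratin, went from 125, 84.0, 430 and 408 CPM (log2 fold change 1.92, SE 0.27) to 118, 84.0, 140 and 169 CPM (0.55, SE 0.27, adjusted p = 0.997). The spermidine synthase Srm went from a log2 fold change of 3.56 to 2.45 (adjusted p = 0.802). Fkbp11, an endoplasmic reticulum chaperone of secretory cells, went from 4.01 to 2.17 (adjusted p = 0.997). The tetraspanin Tspan1 went from 2.74 to 2.09 (adjusted p = 0.540). Leaving out a mouse also moved the count: 8 higher and 1 lower without Control 1, 4 and 0 without Control 2, 18 and 1 without EC-Foxc-DKO 1, and 26 and 4 without EC-Foxc-DKO 2. Each of these fits has an arm of 1 mouse, which is assumed to vary like the mice of the other group.

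**Figure D4:**
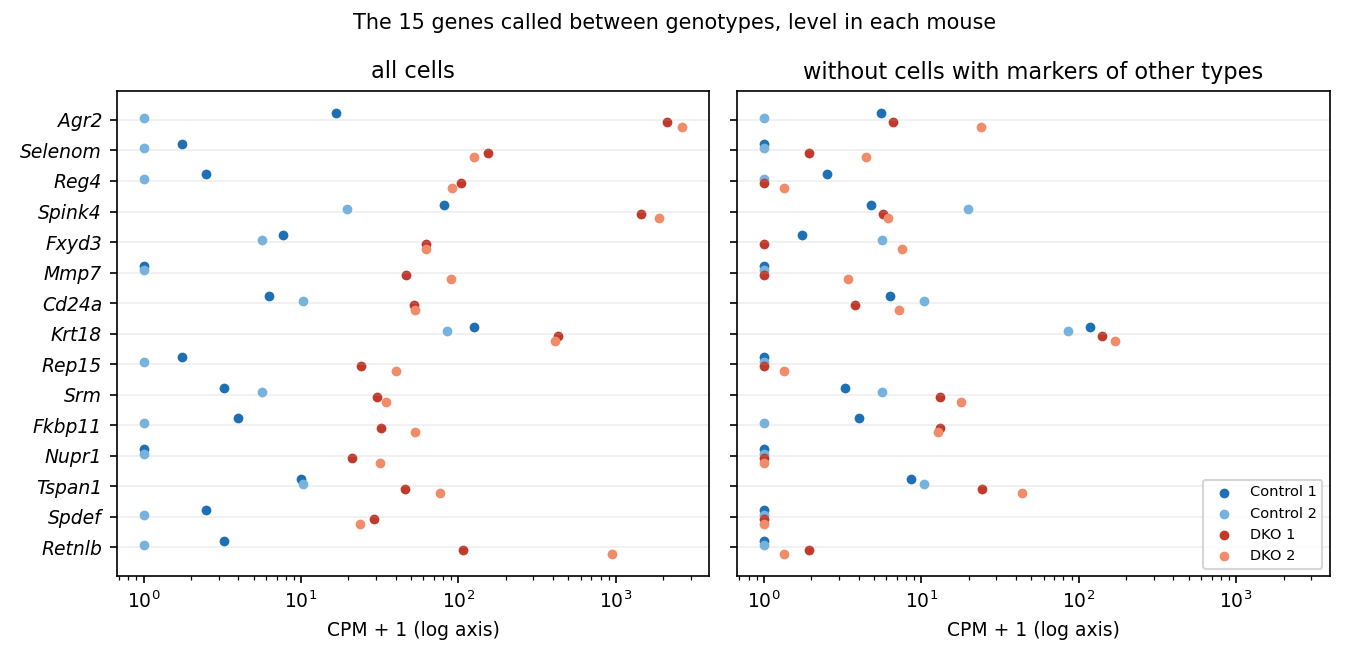
CPM + 1 (log axis) of the 15 genes called between genotypes, each point 1 mouse, with all Reg3-high enterocytes on the left and without the 33 cells with markers of other types on the right. The EC-Foxc-DKO mice lie above the Control mice on the left (Agr2 at 2111 and 2651 CPM against 15.7 and 0) and most of these gaps shrink on the right, with Srm, Fkbp11 and Tspan1 still apart (Tspan1 at 23.4 and 42.5 CPM against 7.58 and 9.33).

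By gene group, beside 0.203% of all genes tested, the genotype calls included 3 of 7 tested goblet markers (Agr2, Spink4, Spdef), the Paneth gene Mmp7, 1 of 3 Reg family lectins (Reg4), 1 of 9 antimicrobial and barrier genes (Retnlb) and 1 of 14 fetal-like and repair genes (Krt18). Of 13 Paneth markers 3 passed the filter on low counts, and Mmp7, at 0 in both Control mice, passed it only through the EC-Foxc-DKO mice. Spdef, Reg4 and Retnlb, with 2, 2 and 3 UMIs in Control 1 and 0 in Control 2, passed it the same way. The counts of goblet, Paneth, Reg family and antimicrobial genes are therefore not read against the share of all genes. No member passed among the 19 brush border hydrolases, 21 lipid absorption genes, 23 transporters, 38 glutathione and xenobiotic enzymes, 16 MHC class II and interferon-gamma genes, 7 type I interferon genes, 9 interleukin-22 and STAT3 genes, 16 endoplasmic reticulum stress genes and 9 cell cycle genes tested, numbers too small to set against that share. Without the 33 cells no member of any list passed. Hspa5 and Mt2 had separate genotypes without passing, as 37.1% of all genes tested did not overlap. The endoplasmic reticulum chaperone Hspa5 stood at 631, 355, 794 and 1294 CPM (log2 fold change 1.04, SE 0.33, adjusted p = 0.548) and at 639, 355, 690 and 1214 CPM without the 33 cells. The metallothionein Mt2, a metal-binding protein, stood at 139, 112, 41.5 and 50.4 CPM (log2 fold change -1.48, SE 0.27, adjusted p = 0.086). Gpx2, the glutathione peroxidase of the gut epithelium, had 361, 373, 425 and 1161 CPM (adjusted p = 0.692), high in EC-Foxc-DKO 2 alone. Isg15, an interferon-induced modifier, stood at 32.9, 32.7, 31.2 and 26.2 CPM (log2 fold change -0.23, SE 0.32).

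The Reg3-high enterocytes were then set against 3 other kinds of Epcam cell in the same mice, with the mouse as a block. These kinds were defined by the gene lists alone, without a measured position on the villus. There were 398, 31, 268 and 149 mid list cells in Control 1, Control 2, EC-Foxc-DKO 1 and EC-Foxc-DKO 2. Top list cells numbered 363, 204 and 11, and Sprr list cells 97, 52 and 286, in Control 1, EC-Foxc-DKO 1 and EC-Foxc-DKO 2, and Control 2, with 6 and 2 such cells, was left out of those fits. Both of these kinds held goblet transcripts too. Before TMM scaling, goblet markers summed to 2673, 14504 and 18406 CPM in top list cells of those mice. In Sprr list cells they summed to 2774, 17915 and 3230 CPM, and in Reg3-high enterocytes to 3243, 8582 and 9126 CPM. Because UMIs of these very cells set the kinds apart, genes that vary with the rule's genes had to differ, and the counts describe that separation. The rule's own genes are given no test, and levels below are CPM scaled by the TMM factors of the fit. A named gene passed an adjusted p of 0.05 unless its adjusted p is given.

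Against mid list cells, 1482 of 9065 genes (16.3%) were higher in Reg3-high enterocytes and 1532 (16.9%) were lower, together 33.2%. Scaling by library size alone gave 2034 and 931, a median shift of 0.173 on the log2 scale, so that 68.6% rather than 49.2% of the calls were higher. Without EC-Foxc-DKO 1 the fit called 968 and 985. The counts were 1458 and 1481 without cells with markers of other types, with 1276 and 1394 genes shared with the fit of all cells.

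Ccnd2, C1qbp and Hspd1 were among the genes higher than in mid list cells. The G1 cyclin Ccnd2 stood at 42.2, 55.8, 98.4 and 136 CPM in Control 1, Control 2, EC-Foxc-DKO 1 and EC-Foxc-DKO 2, against 8, 13.6, 13.6 and 12 CPM in mid list cells (log2 fold change 2.85, SE 0.18). The mitochondrial protein C1qbp stood at 94.0, 176, 105 and 120 CPM against 18.9, 34.1, 17.9 and 25.8 CPM (2.36, SE 0.12). The mitochondrial chaperonin Hspd1 stood at 253, 343, 341 and 374 CPM against 75.6, 114, 81.2 and 79.2 CPM (1.94, SE 0.13). In all 4 mice each of the 3 genes was at least 3-fold higher in the Reg3-high enterocytes. The cytokine Mif (log2 fold change 2.07), the chromatin protein Ptma (1.96), the lectin Lgals2 (1.95), the inflammasome adaptor Pycard (1.69), the keratin Krt19 (1.52), the bacteria-binding protein Dmbt1 (1.63) and the surface antigen Ly6a (2.12) were also higher, the last at 5.83, 4.29, 19.4 and 208 CPM and so high in EC-Foxc-DKO 2 alone. Of 16 cell cycle genes tested 9 were higher and 0 lower (median log2 fold change 1.10; 7 of 11 without cells with markers of other types), although the rule had required Mki67 at 0, and of 12 heat shock genes 6 were higher and 0 lower (median 0.55).

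Goblet and Paneth genes were among the higher genes, and the cells described above were found by these same markers, so that their fall without those cells was built into that choice. Fcgbp stood at 787, 4.29, 1089 and 803 CPM against 9.06, 3.89, 7.64 and 1.53 CPM in mid list cells (log2 fold change 6.97) and at a log2 fold change of 0.34 (adjusted p = 0.506) without them. Muc2 went from 6.63 to 0.21 (adjusted p = 0.635), Spink4 from 6.88 to 0.31 (adjusted p = 0.606) and Defa24 from 6.18 to -0.37 (adjusted p = 0.536). Of 13 Paneth markers 6 passed the filter on low counts, and all 13 summed to at most 44.7 CPM in the mid list cells of any mouse, so no count of these markers is read.

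Brush border and lipid absorption genes were lower. The apolipoprotein Apoa4 stood at 2693, 742, 1460 and 2350 CPM against 8285, 5029, 11238 and 8685 CPM in mid list cells (log2 fold change -2.29, SE 0.20). Fabp2 stood at 11675, 17403, 10427 and 13395 CPM against 43116, 30416, 48435 and 62317 CPM (-1.79, SE 0.21). Enpp7, the intestinal sphingomyelinase, stood at 58.3, 30.0, 51.1 and 42.1 CPM against 434, 187, 380 and 309 CPM (-2.87, SE 0.13). Every mouse was lower for each of them. The drug-metabolising enzyme Cyp3a11 (-3.62), the phospholipase Plb1 (-3.23), the vitamin C transporter Slc23a1 (-2.93) and Selenop (-2.70) were also lower. All 19 brush border hydrolases tested were lower (median -1.23), and so were 20 of 21 lipid absorption genes (median -1.03), 19 of 23 transporters, 10 of 13 type I interferon genes (median -1.77) and 14 of 18 MHC class II and interferon-gamma genes (median -0.82). Those medians were -1.07, -0.86, -1.56 and -0.64 for hydrolases, lipid, type I interferon and MHC class II genes when scaled by library size alone. The invariant chain Cd74 stood at 205, 129, 261 and 403 CPM against 858, 343, 479 and 1049 CPM. Of 8 enteroendocrine and tuft markers tested, 3 were lower as well (median -0.58). Without cells with markers of other types, 11 of 13 type I interferon genes were lower (median -1.87). So were 14 of 17 MHC class II and interferon-gamma genes (median -0.77).

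The 7 genes that the study's marker table gives to bottom enterocytes, outside the rule, did not follow the name villus-bottom against mid list cells. None was higher and 3 were lower: Sis (2043, 1793, 2307 and 2243 against 2385, 3367, 2840 and 3553 CPM, log2 fold change -0.52, SE 0.13), Fabp1 (-0.60) and the monoamine oxidase Maoa (-0.51). Plac8, a small cysteine-rich protein, did not pass (-0.05, SE 0.13, adjusted p = 0.793), nor did Ccl25 (0.11, SE 0.13, adjusted p = 0.563). Reg3a, at 705, 566, 360 and 149 CPM against 393, 524, 255 and 143 CPM, was slightly higher (0.40, SE 0.14, adjusted p = 0.0423), a call that was lost without Control 1 (0.23) and without EC-Foxc-DKO 1 (0.37). All 10 middle enterocyte genes and all 6 tested top enterocyte genes of that table were lower. The table was drawn up on these samples and is no independent evidence.

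Against top list cells, 2047 of 9116 genes (22.5%) were higher and 2071 (22.7%) lower, in 3 mice, or 45.2% in all. Scaling by library size alone gave 2587 and 1648 (61.1% rather than 49.7% higher, median shift 0.197). The fit called 747 and 1010 genes without Control 1 and 843 and 838 without EC-Foxc-DKO 1, and DESeq2 called 1326 and 1318. Here the bottom enterocyte genes did follow the name, with all 7 higher (median log2 fold change 1.29), for example Plac8 at 5245, 4838 and 4494 against 2236, 1394 and 1835 CPM in Control 1, EC-Foxc-DKO 1 and EC-Foxc-DKO 2 (1.44, SE 0.18) and Sis at 2021, 2283 and 2220 against 1217, 867 and 784 CPM (1.20, SE 0.19). Ccl25 stood at 1315, 1116 and 757 CPM against 464, 322 and 395 CPM (1.44, SE 0.20). Of 14 amino acid and urea cycle enzymes 10 were higher and 1 lower (median 1.30), among them the ornithine aminotransferase Oat (2.06). Hspd1 (2.26), the mitochondrial scaffold Phb (2.73), Pycard (2.42) and the carboxylesterase Ces1f (2.68) were higher as well.

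Pmp22, Lama3, Enpp3 and Clu were among the genes furthest below top list cells. The membrane protein Pmp22 had 8.64, 2.30 and 4.72 CPM against 693, 1009 and 127 CPM (log2 fold change -6.40, SE 0.40), and the laminin chain Lama3 (-6.25), the nucleotide-cleaving ectoenzyme Enpp3 (-5.82) and the secreted chaperone Clu (-5.76) were close behind. Apoa4 stood at 2663, 1445 and 2326 CPM against 38014, 45548 and 26823 CPM (-4.11, SE 0.23), and Selenop was lower by a similar amount (-4.55). The villus transcription factor Klf4 stood at 51.9, 58.3 and 150 CPM against 994, 919 and 509 CPM (-3.36). No mouse overlapped between the kinds for these genes. Of 13 type I interferon genes 11 were lower and 0 higher (median -2.63), of 21 lipid absorption genes 16 were lower and 3 higher, and of 16 AP-1 and immediate early genes 12 were lower and 0 higher. Markers of other cell types moved with these lists. Lower were 6 of 7 tested myeloid markers (median -3.00), 9 of 11 enteroendocrine and tuft markers (median -2.89) and 3 of 6 T cell markers (median -1.90). So were 3 of 7 goblet and 2 of 9 B and plasma cell markers (medians -0.23 and -1.21), while 4 of 8 Paneth markers were higher (median 1.44). Before TMM scaling, Paneth markers summed to 77.1, 121 and 5526 CPM in Control 1, EC-Foxc-DKO 1 and EC-Foxc-DKO 2. In top list cells they summed to 19.7, 127 and 3389 CPM. No count of Paneth markers is read, and 0 of 1 was higher without cells with markers of other types. For myeloid, T cell and B and plasma cell markers EC-Foxc-DKO 2 ran the other way, at 58.4, 107 and 1118 CPM against 27.6, 0 and 62.0 CPM. Without cells with markers of other types, 12 of 13 type I interferon genes (median -2.78) and 18 of 21 lipid absorption genes (median -1.78) were lower.

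The Sprr genes encode small proline-rich proteins of stratified epithelia. Against Sprr list cells, 2037 of 9073 genes (22.5%) were higher and 2313 (25.5%) lower in 3 mice, or 47.9% in all. Library size alone gave 3286 and 1496 (68.7% rather than 46.8% higher, median shift 0.359). Among the genes lowest in the Reg3-high enterocytes were the interleukin-1 antagonist Il1rn, with 0, 0 and 0.246 CPM in Control 1, EC-Foxc-DKO 1 and EC-Foxc-DKO 2 against 64.5, 58.9 and 76.0 CPM, Pmp22 (log2 fold change -7.45), Clu (-6.61) and the surface antigen Ly6d (-6.08). The calcium-binding protein S100a6 stood at 587, 934 and 1205 CPM against 8148, 7378 and 8170 CPM (-3.18, SE 0.27), and the cell cycle inhibitor Cdkn1a at 275, 216 and 276 CPM against 710, 847 and 895 CPM (-1.68, SE 0.19). Of 21 fetal-like and repair genes 16 were lower and 2 higher (median -2.26), and of 20 hypoxia and glucose-sensing genes 17 were lower and 0 higher (median -1.64), such as the glycolytic enzyme Pgk1 at 284, 270 and 344 CPM against 1347, 1176 and 1658 CPM (-2.21, SE 0.18). Markers of other cell types moved as well. Higher calls were 7 of 8 tested Paneth markers (median 2.87) and 2 of 4 B and plasma cell markers (median 2.55). Of 9 enteroendocrine and tuft markers 5 were lower (median -1.82), and of 7 goblet markers 0 passed in either direction (median -0.31). Before TMM scaling, Paneth markers summed to 77.1, 121 and 5526 CPM in Control 1, EC-Foxc-DKO 1 and EC-Foxc-DKO 2. In Sprr list cells they summed to 18.8, 629 and 283 CPM. EC-Foxc-DKO 1 thus ran the other way, and no count of Paneth markers is read. With those cells left out, 0 of 3 Paneth and 0 of 2 B and plasma cell markers were higher. Those cells are the ones with markers of other types. Without them, 16 of 20 fetal-like and repair genes (median -3.06) and 17 of 20 hypoxia and glucose-sensing genes (median -1.56) were lower. Of 12 cell cycle genes 6 were higher and 0 lower, and 1 of 11 without cells with markers of other types (median 0.76 and 0.22).

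Among the genes higher than in Sprr list cells were Pigr, Reg3a and Oat. Pigr, the receptor that carries immunoglobulin A across the epithelium, stood at 1392, 1294 and 599 CPM against 230, 130 and 196 CPM (log2 fold change 2.50, SE 0.31), although against mid list cells it was lower (-0.43). Reg3a stood at 655, 335 and 138 CPM against 55.4, 22.5 and 63.2 CPM (2.79, SE 0.48), and Oat at 784, 879 and 425 CPM against 102, 98.0 and 99.2 CPM (2.72, SE 0.24). These 3 genes were higher in each mouse, and the difference was smallest in EC-Foxc-DKO 2. Of 14 amino acid and urea cycle enzymes 11 were higher and 0 lower (median 1.30), whereas 13 of 18 tight junction and adhesion genes and 17 of 21 lipid absorption genes were lower. Fabp6 had a log2 fold change of 8.19, at 0.677, 18.7 and 403 CPM against 0.285, 0 and 1.09 CPM, and rested on EC-Foxc-DKO 2 for most of its counts. The 5 bottom enterocyte genes that were higher of 7 included Sis (1.10, SE 0.19), and Ccl25 was also higher (1.63, SE 0.25).

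**Figure D5:**
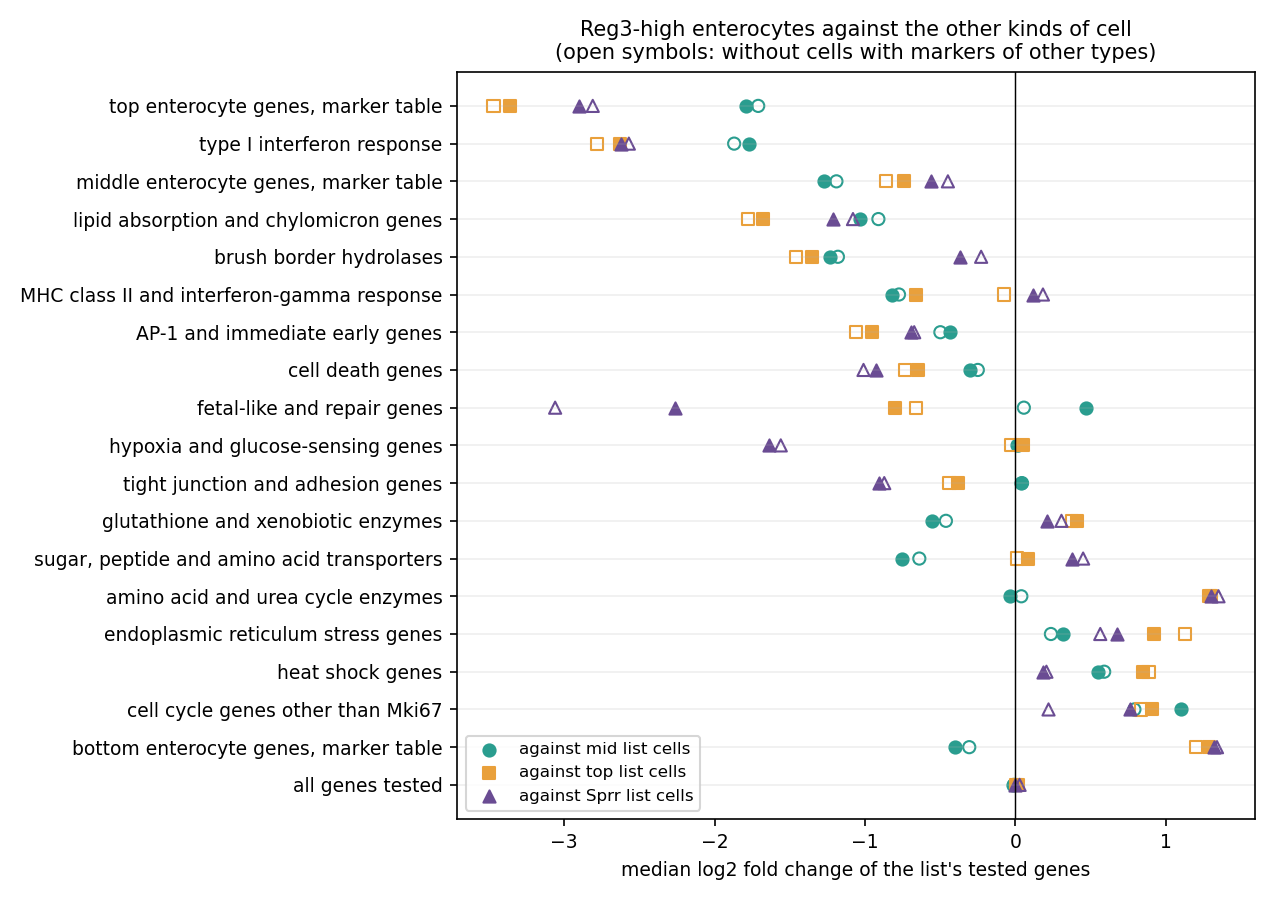
Median log2 fold change of the tested genes of each list in Reg3-high enterocytes against mid list cells (circles), top list cells (squares) and Sprr list cells (triangles), with open symbols for the fits without cells with markers of other types. Lipid absorption genes (-1.03, -1.68 and -1.21) and type I interferon genes (-1.77, -2.63 and -2.62) lie below 0 against all 3 kinds, and cell cycle genes (1.10, 0.91 and 0.76) above 0, with 0.22 against Sprr list cells without cells with markers of other types.

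Across the 3 comparisons, 685 of the 8698 genes tested in all were higher in Reg3-high enterocytes than in every other kind, in the same direction in every mouse, and 609 were lower. The comparisons share the same Reg3-high enterocytes, so these counts are not independent. Isg15 shows the lower pattern, with 32.0, 30.0, 30.2 and 24.4 CPM against 136, 64.2, 121 and 102 CPM in mid list cells (log2 fold change -1.99), and with -2.80 against top list cells and -3.21 against Sprr list cells. Pycard shows the higher pattern, with 1.69, 2.42 and 2.76 in the same order.

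Whether genotype acted differently on the Reg3-high enterocytes and on the mid list cells was tested with an interaction term over 9065 genes, and 4 genes (0.0441%) passed, all with a positive difference of the log2 changes (Reg3-high enterocytes less mid list cells): the goblet gene Spink4, the selenoprotein Selenom and the plasma cell genes Jchain and Igha. The rule's genes stayed in the fit, and no test of its lectins is read. For Jchain and Igha the Control 1 mid list cells were the highest of that kind, so the change in mid list cells ran the other way. The same mice supply both kinds of cell, and Spink4 and Igha changed sign without cells with markers of other types. The count was 3 without Control 1, 14 without Control 2, 56 without EC-Foxc-DKO 1 and 19 without EC-Foxc-DKO 2.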

How the data were processed

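The deposited matrices of the 4 libraries hold UMI counts that the authors made with Cell Ranger 4.0.0 on mm10 with a Cre sequence added (per the labels), over 32286 features. The study's methods name another Cell Ranger version than the labels do. A joined table of the series was not used here. Counts were summed per mouse and kind of cell and tested with edgeR 4.0.16 in R 4.3.3 (filterByExpr, TMM, quasi-likelihood F test, Benjamini-Hochberg), whereas the study's methods tested single cells. The fit was tested on simulated data. DESeq2 1.42.0 was an alternative. Doublets were not removed in the main analysis, since the automatic Scrublet call (scanpy 1.11.5) marked 0.221% of cells and so had not worked, and removal at a rate of 0.8% per 1000 barcodes was an alternative. Genes named were the 10 with the largest change in each direction that agreed in every mouse (at least 50 CPM in a kind of cell), members of gene lists by abundance, and the 20 most abundant and 15 most variable genes. Il22ra1, Gpx2, Fxyd3, Cd24a, Srm and Tspan1, and Dmbt1, Hspd1 and Pycard against mid list cells, were chosen after their values were seen. Members and lists were chosen with earlier results of these data known. The separate mice of a group are the replicates. GENCODE and RefSeq gave gene positions and promoters. Depth per mouse is given with the cells, and at 214359 UMIs Control 2 resolves 1 UMI as 4.67 CPM.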

Additional observations from a re-analysis of the deposited data

Results flagged for a closer look

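For 4 of 9065 genes (0.0441%) the genotype difference in Reg3-high enterocytes differed from that in mid list cells of the same mice (edgeR interaction of kind of cell and genotype, adjusted p under 0.05, with the mouse as a block), and the difference (Reg3-high enterocytes less mid list cells) was positive for all 4. Selenom, a selenoprotein of the endoplasmic reticulum, had a difference of 7.67 on the log2 scale (adjusted p = 0.000448), with 0.728, 0, 148 and 116 CPM in the Reg3-high enterocytes of Control 1, Control 2, EC-Foxc-DKO 1 and EC-Foxc-DKO 2 against 9.44, 0, 9.86 and 5.83 CPM in mid list cells. The goblet gene Spink4 had a difference of 4.30 (adjusted p = 0.000975), which was -0.25 (adjusted p = 1.00) without cells with markers of other types. Jchain, which joins antibody subunits in plasma cells, had 8.79 (adjusted p = 0.0168), with 2.19, 0, 5.42 and 63.3 CPM against 130, 0, 4.44 and 1.84 CPM. The antibody heavy chain Igha had 8.27 (adjusted p = 0.0390), with 10.2, 0, 4.65 and 277 CPM against 398, 4.87, 9 and 9.82 CPM, and -1.68 without those cells. Jchain and Igha were thus high in a single mouse of each kind, Control 1 for mid list cells and EC-Foxc-DKO 2 for Reg3-high enterocytes, so their genotype changes ran in opposite directions in the 2 kinds. Without cells with markers of other types, Selenom and Jchain fell below the filter on low counts, and the only gene called outside the rule was 2210407C18Rik (-1.84), chosen after its value was seen.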

How the results depend on the processing

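The genotype comparison depended most on the choice of cells and of genes tested. It gave 7 higher and 2 lower genes in cells with at least 10000 UMIs (1 Control mouse), 35 and 2 with a mitochondrial share of up to 20%, 162 and 26 without the filter on low counts, 16 and 1 with DESeq2, 0 and 0 without cells with markers of other types (added after the data had been seen), and between 4 and 26 higher and between 0 and 4 lower when each mouse was left out. A mitochondrial limit of 5% was not run for lack of cells in 2 mice. The replicate block gave 12 and 0, and same-numbered mice deviated from their group means with a correlation of -0.06, so the numbers were not taken as a pairing. Against mid list cells, 879 genes were higher and 762 lower without the mouse as a block, 931 were lower by library size alone, and leaving out a mouse gave between 968 and 1600 higher and between 985 and 1606 lower. Against top list cells DESeq2 gave 1326 and 1318, and leaving out a mouse gave between 747 and 2479 and between 838 and 2554. Against Sprr list cells library size alone gave 3286 and 1496. The interaction called 15 genes by library size alone, 2 without cells with markers of other types (1 of them a gene of the rule), and between 3 and 56 when a mouse was left out. Reversed log2 fold changes were Defa24 at -0.37 and Zg16 at -0.37 against mid list cells and Igha at -1.68 and Spink4 at -0.25 in the interaction, all without cells with markers of other types, and against top list cells Psmb8 at -0.33 in cells with at least 10000 UMIs, Reg1 at -0.085 without Control 1 (up to 4.57 without another mouse) and Retnlb at -1.70 without EC-Foxc-DKO 1 (up to 3.16 without another). The share of Reg3-high enterocytes was 22.6%, 24.4%, 20.4% and 52.0% after thinning, 19.5% in Control 2 and 1.64% in EC-Foxc-DKO 1 at a mitochondrial limit of 5%, and 5.43% in EC-Foxc-DKO 1 in cells with at least 10000 UMIs. The causes of these shifts were not tested, except that fewer genes or cells were tested where a setting removes them. Gene by gene, 5503 of 5919 values under these settings kept direction and side of the threshold, 270 lost the call, 139 gained one and 7 reversed.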

Other observations

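Ribosomal protein genes, a group chosen after its values were seen, took a larger share of the UMIs in Reg3-high enterocytes than in the other kinds of Epcam cell. The 84 genes took 14.5% in Control 1, 16.1% in Control 2, 15.4% in EC-Foxc-DKO 1 and 11.6% in EC-Foxc-DKO 2, against 6.56%, 8.58%, 6.76% and 4% in mid list cells. In top list cells they took 3.90%, 4.46% and 4.52%, and in Sprr list cells 4.29%, 3.97% and 5.44%, in Control 1, EC-Foxc-DKO 1 and EC-Foxc-DKO 2. In each mouse the share was higher than in every other kind of cell compared. The predicted gene Gm42418, which overlaps ribosomal RNA sequence, stood at 12342, 14233, 5520 and 1206 CPM in the Reg3-high enterocytes and at 11499, 7293, 7043 and 2220 CPM in mid list cells, lowest in EC-Foxc-DKO 2 in both kinds.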
